A study of Mus musculus with 15 samples.

Results

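The 9 imprinted growth genes H19, Igf2, Meg3, Dlk1, Cdkn1c, Grb10, Peg3, Peg10 and Mest were followed across sections of mouse embryos, out of 30534 genes with a column in any of the tables. They were taken by name, and all 9 had a column in each of the 11 transcript libraries. Deterministic barcoding in tissue writes a 2-part spatial barcode onto the RNA of a frozen section through crossed microchannels, so that every pixel of a grid gets its own gene counts. The transcript libraries comprised E10 (embryonic day 10) embryos at pixel widths of 10 µm (n = 2), 25 µm (n = 1) and 50 µm (n = 3), E11 embryos at 10 µm (n = 2) and 25 µm (n = 2), and 1 E12 embryo at 50 µm. Sections were under 7 µm thick. The labels give no strain, sex or treatment, and they name no allele or agent that separates the groups. Stage and pixel width are the only factors they name. A batch that ran with stage could not be told apart from it. The labels do not give the plane of section or the part of the embryo in it. Nothing in them says that libraries of a group came from separate embryos, so p-values measure the spread between these libraries, which may be partly technical. The 4 antibody libraries of the series were not used here.

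In an imprinted gene only the copy from 1 parent is active in most tissues. Many such genes act on the growth of the embryo and placenta: paternally expressed Igf2 and Dlk1 promote growth or hold cells in a progenitor state, and maternally expressed Cdkn1c and Grb10 restrain it. Several lie in pairs that share a control region, as Igf2 does with the noncoding H19 and Dlk1 with the noncoding Meg3. In the midgestation embryo most of these genes are known for strong expression in mesoderm-derived tissues, and Igf2 and Dlk1 also in the liver bud. The counts here do not separate the parental alleles.

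In the GENCODE M21 annotation of the mouse build GRCm38, H19 lies at chr7:142575529-142578143 and Igf2 at chr7:142650766-142666816, both on the minus strand, with 72622 bases between them. Dlk1 at chr12:109452823-109463336 and Meg3 at chr12:109541001-109571726, both on the plus strand, are separated by 77664 bases. Cdkn1c lies at chr7:143458339-143461050, Peg3 at chr7:6703892-6730431 and Grb10 at chr11:11930508-12038683, all on the minus strand. Peg10 lies at chr6:4747306-4760517 and Mest at chr6:30723547-30748465, both on the plus strand. The 3' end of Mest overlaps Copg2 on the opposite strand, which had 36.5 to 61.2 CPM (counts of the gene per 1000000 counts of the tissue pixels), and Igf2 overlaps the antisense gene Igf2os, which had at most 0.395 CPM. Cdkn1c overlaps the antisense gene Gm44732, with at most 3.26 CPM. Whether the counting used strand is not given in the sources used here, so reads from such partners cannot be told apart.

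Promoter windows of 300 bases (250 before to 50 after a transcript start, RefSeq on GRCm38.p6) were at hand for 6 of the 9 genes, 13 windows in all, and none for H19, Peg10 and Cdkn1c. The 250 upstream bases are shown for the 5 genes whose counts were higher in mesenchyme than in neural pixels (below), taking for each gene the window with the most CG dinucleotides among those with at most 30 annotated exon bases. Capitals mark TGCCGC or its reverse complement GCGGCA, the hexamer recognised by the imprint-maintaining protein ZFP57, searched on both strands with no overlap between matches.
Igf2 promoter, chr7:142657497-142657746, minus strand: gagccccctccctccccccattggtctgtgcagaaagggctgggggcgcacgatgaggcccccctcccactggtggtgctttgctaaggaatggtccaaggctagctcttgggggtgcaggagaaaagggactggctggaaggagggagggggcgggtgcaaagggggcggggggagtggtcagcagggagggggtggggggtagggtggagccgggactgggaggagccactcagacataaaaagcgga
Dlk1 promoter, chr12:109452573-109452822, plus strand: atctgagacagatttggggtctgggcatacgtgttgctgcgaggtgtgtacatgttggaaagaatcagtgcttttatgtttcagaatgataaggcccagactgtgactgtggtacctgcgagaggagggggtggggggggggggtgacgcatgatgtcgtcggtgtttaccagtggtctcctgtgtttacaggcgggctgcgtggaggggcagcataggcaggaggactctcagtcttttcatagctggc
Grb10 promoter, chr11:12037421-12037670, minus strand: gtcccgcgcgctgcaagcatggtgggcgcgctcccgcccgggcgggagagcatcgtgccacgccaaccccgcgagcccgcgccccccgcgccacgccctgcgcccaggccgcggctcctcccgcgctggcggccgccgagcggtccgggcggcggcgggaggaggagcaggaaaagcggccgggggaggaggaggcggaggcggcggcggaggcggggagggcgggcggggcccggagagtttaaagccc
Peg3 promoter, chr7:6730420-6730669, minus strand: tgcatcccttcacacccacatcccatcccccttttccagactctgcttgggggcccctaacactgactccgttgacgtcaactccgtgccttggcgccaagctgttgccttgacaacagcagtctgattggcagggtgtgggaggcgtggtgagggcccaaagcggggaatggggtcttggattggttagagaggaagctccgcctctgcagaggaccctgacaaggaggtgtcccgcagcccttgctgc
Mest promoter, chr6:30737800-30738049, plus strand: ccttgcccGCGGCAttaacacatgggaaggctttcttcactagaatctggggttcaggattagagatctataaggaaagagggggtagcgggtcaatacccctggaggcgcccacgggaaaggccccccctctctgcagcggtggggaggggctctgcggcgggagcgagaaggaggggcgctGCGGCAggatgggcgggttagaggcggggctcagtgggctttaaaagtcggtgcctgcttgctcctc
Mest held 2 matches in the 250 bases shown and the other windows shown held 0. Over the full 300 bases, 5 of the 13 windows, from 4 genes (Igf2, Meg3, Grb10 and Mest), held a match, against 11.6% of all 32851 windows in the table, and both Mest windows with a match overlap each other. The hexamer itself holds a CG, and these shares were not matched for CG content. The windows with a match held 13 to 45 CG dinucleotides, against a median of 7 over all windows. The shown windows held 40 CG dinucleotides upstream of Grb10, 14 upstream of Mest, 8 upstream of Dlk1 and of Peg3 and 6 upstream of Igf2. A match describes the letters only, and binding was not measured.

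Tissue pixels, those with at least 0.1 of the 95th percentile of the library's pixel totals, numbered 829 to 2271 per library and held 1563489 to 11998765 counts, with a median of 843.5 to 11332 counts per pixel. Libraries of the same group differed far beyond sampling noise (chi-square per degree of freedom 24.6 to 70.0 in 6 pairs). Sections also differed in content. The summed level of 11 liver genes was 3.26 to 8.09 CPM in the 6 E10 libraries, 54.1 to 3696 CPM in the 4 E11 libraries and 3679 CPM at E12, and that of 8 neuron genes was 741 to 2992 CPM at E10, 209.7 to 805 CPM at E11 and 888 CPM at E12. Replicate 2 of E11 at 10 µm stood apart, with the highest heart muscle list (4392 CPM) and the lowest neural progenitor list (120.3 CPM) of the 11 libraries. These contents move with the stage groups, and their part in the stage results was not tested.

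Pixel classes stood in for tissues. A tissue pixel was given to the marker list in which its share of counts ranked highest within its library, if that rank was at least 0.9 and the pixel had at least 2 counts over at least 2 list genes, and classes with at least 20 pixels were summed per library. No list holds any of the 9 genes. A pixel can hold several cells, so a class is a region rich in those markers and no pure cell type. Mesenchyme pixels had a median summed level of 5826 CPM for the 11 mesenchyme genes, against 540 CPM in neural progenitor and 598 CPM in neuron pixels. Over the libraries these sums ran from 2627 to 8833 CPM in mesenchyme, 140 to 1955 CPM in progenitor and 358 to 2002 CPM in neuron pixels. The separation of the classes thus varied between libraries, and its part in the ratios below was not tested. In the 4 libraries with liver pixels the liver list summed to 8754 to 18871 CPM in those pixels, against 307 to 772 CPM in mesenchyme, 236 to 929 CPM in neuron and, in 3 of them, 148 to 1354 CPM in neural progenitor pixels. Mesenchyme, neuron, endothelium and red cell pixels were found in all 11 libraries, neural progenitor pixels in 10, heart muscle pixels in 9, epithelium pixels in 8, liver pixels in 4 and skeletal muscle pixels in 1. Mesenchyme pixels held fewer counts each than the average tissue pixel (median ratio 0.635) and liver pixels more (1.55), and the part of depth in the comparisons was not tested.

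The noncoding members were nearly absent from these tables. H19, the maternally expressed partner of Igf2 and known as an abundant RNA of the mouse embryo, had 111 counts over all 11 libraries. Its counts per library ran from 1 to 20, or 0.189 to 4.38 CPM with a median of 1.67 CPM, and it was seen in at most 1.11% of tissue pixels. Meg3, the maternally expressed noncoding RNA beside Dlk1, had 124 counts in all, 2 to 26 per library, and a median level of 1.51 CPM. For comparison, Malat1, a nuclear noncoding RNA present in nearly every cell type, had 2 to 20 counts per library and a median of 1.67 CPM, and Neat1 had 0 to 2 counts. Rian, a noncoding RNA downstream of Meg3, was at 0.987 to 16.2 CPM. All 2603 long noncoding genes of the tables together took 1883 to 4063 CPM, against 835945 to 914866 CPM for protein-coding genes, and among the noncoding genes Meg3 ranked 48th and H19 54th by mean level. Their sum was 2760 to 4063 CPM in the E11 libraries and 1883 to 2343 CPM in the E10 and E12 libraries. The cause of that difference was not tested. The count ratio of H19 to Igf2 was between 0.000943 and 0.00652. Both genes missed the low-count filter in every tissue comparison, so their tissue preference was not tested. In the stage comparisons their fitted changes were within the spread between libraries, with intervals from -2.50 to 3.55 on the log2 scale.

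Igf2, the main fetal growth factor, had levels at E10 of 503 and 200.2 CPM at 10 µm, 411 CPM at 25 µm, and 440, 528 and 242 CPM at 50 µm. At E11 it was at 294 and 949 CPM at 10 µm and at 485 and 716 CPM at 25 µm. The E12 library had 1310.2 CPM (8516 counts, exact 95% binomial interval 1283 to 1338 CPM, counting error only). The E12 library lay above all 3 E10 libraries of its width, both E11 libraries at 25 µm lay above the E10 library, and those at 10 µm straddled the E10 pair.

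Dlk1, a membrane protein of the Notch ligand family that holds precursor cells undifferentiated, was at 177 and 109 CPM (E10, 10 µm), 147 CPM (E10, 25 µm) and 118, 77.9 and 84.8 CPM (E10, 50 µm). At E11 the levels were 203 and 662 CPM at 10 µm and 214 and 228 CPM at 25 µm, and at E12 the level was 260.2 CPM. All 4 E11 libraries lay above all 3 E10 libraries of the same widths, and the E12 library above its 3.

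Cdkn1c, an inhibitor of cyclin-dependent kinases that stops the cell cycle, was at 609 and 272 CPM (E10, 10 µm), 519 CPM (E10, 25 µm) and 652, 639 and 771 CPM (E10, 50 µm). At E11 it was at 285 and 1007 CPM at 10 µm and at 416 and 552 CPM at 25 µm, with 1327 CPM at E12. The E11 and E10 libraries overlapped at both widths, and the E12 library lay clear of its E10 group. Grb10, an adaptor that dampens signalling from the insulin and insulin-like growth factor receptors, varied little: its lowest, median and highest levels over the 11 libraries were 356, 507 and 619 CPM, a ratio of 1.74 between the extremes.

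Peg3, a zinc-finger protein of a paternally expressed gene, was at 574 and 229 CPM (E10, 10 µm), 390 CPM (E10, 25 µm) and 379, 604 and 430.1 CPM (E10, 50 µm). At E11 the 10 µm libraries had 261 and 1317 CPM and the 25 µm libraries 832 and 1699 CPM, and the E12 library had 1754 CPM. The E11 pair at 10 µm enclosed the higher E10 library, and the other later libraries lay above the E10 libraries of their width. Peg10, a protein domesticated from a retrotransposon and needed in the placenta, was at 96.3 and 64.7 CPM (E10, 10 µm), 85.1 CPM (E10, 25 µm) and 86.1, 89.5 and 97.3 CPM (E10, 50 µm). The 4 E11 libraries had 159 and 260.4 CPM (10 µm) and 174 and 187 CPM (25 µm), all above every E10 library, and the E12 library had 103 CPM. Mest, an enzyme of the alpha/beta hydrolase fold used as a mesoderm marker, varied least, from 574 to 969 CPM with a median of 746 CPM, and its E11 and E10 libraries overlapped at 10 µm, while both E11 libraries at 25 µm lay above the E10 library.

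**Figure D1:**
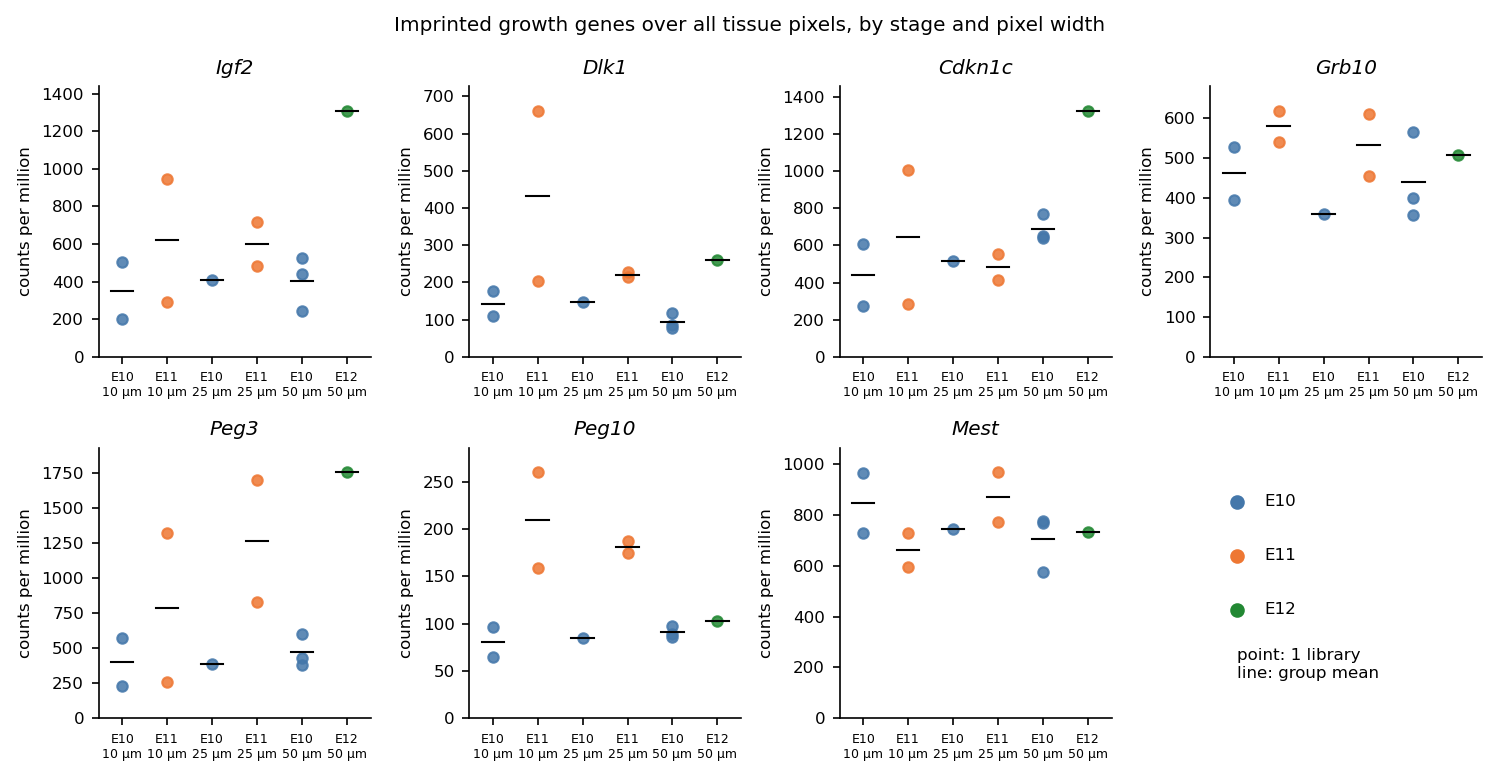
Level of the 7 coding genes over all tissue pixels, in CPM on the y axis, for each group of stage and pixel width on the x axis; points are libraries and lines group means. The 4 E11 points of Peg10 (159 to 260.4 CPM) sit above all E10 points, and the single E12 library is highest for Igf2, Peg3 and Cdkn1c.

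Of the 9 genes, Peg10 alone passed the test between stages. Its level was 2.53-fold higher at E11 than at E10 over the 10 and 25 µm widths (log2 difference 1.34 ± 0.27 SE, adjusted p = 0.0206, edgeR quasi-likelihood test with Benjamini-Hochberg adjustment over all 18233 genes). Of all genes, 3.6% passed in that comparison. At 10 µm alone the log2 difference of Peg10 was 1.37 ± 0.32 (adjusted p = 0.0362, with 3.33% of genes called), and at 25 µm alone it was 1.30 ± 0.42 (adjusted p = 0.208, with 0.455% of genes called). These comparisons share libraries and are not independent, and whether the widths differed was not tested. The call at 10 µm was lost when any of 5 libraries was left out: replicate 1 or 2 of E10 at 10 µm (adjusted p = 0.0896 and 0.222), replicate 1 or 3 of E10 at 50 µm (0.0529 and 0.0616) or replicate 2 of E11 at 10 µm (0.250). Over both widths it was lost without replicate 2 of E10 at 10 µm (0.0519) or replicate 1 of E11 at 25 µm (0.0638).

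Dlk1 had a log2 difference of 1.20 ± 0.39 over both widths (adjusted p = 0.09997) and passed in DESeq2 (0.0150), with no filter on low counts (0.00180) and without replicate 1 of E11 at 10 µm (0.00806). Peg3 had 1.45 ± 0.60 (adjusted p = 0.190), and passed with no filter (0.00534) and without that same library (0.0211). Those settings also called more of all genes: 1377 with DESeq2 and 1988 with no filter, in place of 656. The remaining differences over both widths were 0.79 ± 0.49 for Igf2, 0.55 ± 0.26 for Grb10, 0.34 ± 0.42 for Cdkn1c and 0.03 ± 0.25 for Mest. All 9 fitted differences were above 0, with a median of 0.79 against 0.05 over all genes tested. The share of all genes above 0 is not given here. Mest changed sign in 4 of 16 alternatives and Cdkn1c in 1, and H19 and Meg3 rest on at most 20 and 26 counts per library.

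Between E12 and E10 at 50 µm, 0 of the 9 genes passed the edgeR test, in which 2.14% of all genes did, and 3 had an unadjusted p under 0.05, as did 14.4% of all genes. DESeq2 also called 0. These 3 were Peg3 (log2 difference 1.84 ± 0.76, adjusted p = 0.307), Igf2 (1.64 ± 0.64, adjusted p = 0.267) and Dlk1 (1.44 ± 0.50, adjusted p = 0.185). With no filter on low counts all 3 passed (adjusted p = 0.00687 for Peg3, 0.00161 for Igf2 and 0.00684 for Dlk1), and Dlk1 also without replicate 1 or 2 of E11 at 10 µm (0.0312 and 0.0291), libraries that enter only through the shared estimate of the spread. With no filter 1328 of all genes were called, in place of 390, and more of all genes were also called without either of those E11 libraries. With a single E12 library the fit assumes that it varies like the other groups. Cdkn1c differed by 0.91 ± 0.57, Peg10 by 0.14 ± 0.36 and Mest by 0.01 ± 0.36. The nominal 95% interval for Mest reached from -0.70 to 0.71. The summed mesenchyme list was 3279 CPM at E12 and 658 to 1247 CPM in the 3 E10 libraries at 50 µm. In sums over a section, more cells of a type and more RNA per cell cannot be told apart.

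Tissue preference was compared within libraries. There, 5 of the 7 genes that passed the low-count filter were higher in mesenchyme than in neural pixels, and 0 were lower. The test compared mesenchyme with the mean of the neural progenitor and neuron classes, while the neural levels and ratios given per library pool the counts of both classes. In replicate 2 of E11 at 10 µm that pool holds 39 neuron pixels and 10 progenitor pixels, too few for a progenitor class of its own in the test. In this comparison 21.7% of the 13620 genes tested were called, 1406 higher and 1551 lower. The median log2 difference of the 7 genes was 0.63, against -0.04 over all genes.

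Igf2 had the widest gap. In mesenchyme pixels its lowest, median and highest levels over the 11 libraries were 420.0, 696 and 1547 CPM, and in neural pixels 104, 272 and 1106 CPM. It was higher in mesenchyme pixels in 11 of 11 libraries, by 1.18-fold at the least and 5.55-fold at the most. The fitted difference was 2.51-fold (log2 1.33 ± 0.14, adjusted p = 1.31e-11). Peg3 had 252, 730.4 and 3849 CPM in mesenchyme pixels and 222, 349 and 1504 CPM in neural pixels. It was higher in 10 of 11 libraries, the exception being replicate 2 of E10 at 10 µm with a ratio of 0.98, and the fitted difference was 2.36-fold (log2 1.24 ± 0.17, adjusted p = 1.75e-08). Mest had 721, 1038 and 1388 CPM against 330.1, 573 and 767 CPM, was higher in 11 of 11 libraries, and differed by 1.93-fold (log2 0.95 ± 0.12, adjusted p = 1.34e-09). Ranges of the classes overlap for each of these genes across libraries, and the difference lies within libraries.

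Grb10 differed little but evenly, with ratios of 1.07 to 1.91 in 11 of 11 libraries and a fitted 1.38-fold difference (log2 0.47 ± 0.08, adjusted p = 5.02e-06). Dlk1 was higher in mesenchyme pixels in 7 of 11 libraries, with ratios from 0.56 to 4.22 (log2 0.63 ± 0.21, adjusted p = 0.0243). Its call was lost with a rank of at least 0.8 asked of pixels (adjusted p = 0.114), with no library block (0.0970), and without replicate 2 of E11 at 10 µm (0.0636) or replicate 1 or 2 of E11 at 25 µm (0.113 and 0.213). Cdkn1c (log2 0.29 ± 0.13, adjusted p = 0.109) and Peg10 (0.38 ± 0.19, adjusted p = 0.152) did not pass, and their ratios lay on both sides of 1. Peg10 passed with a rank of at least 0.8 (0.0155) and without replicate 1 of E10 at 10 µm (0.0497), and Cdkn1c without the E12 library (0.0447).

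**Figure D2:**
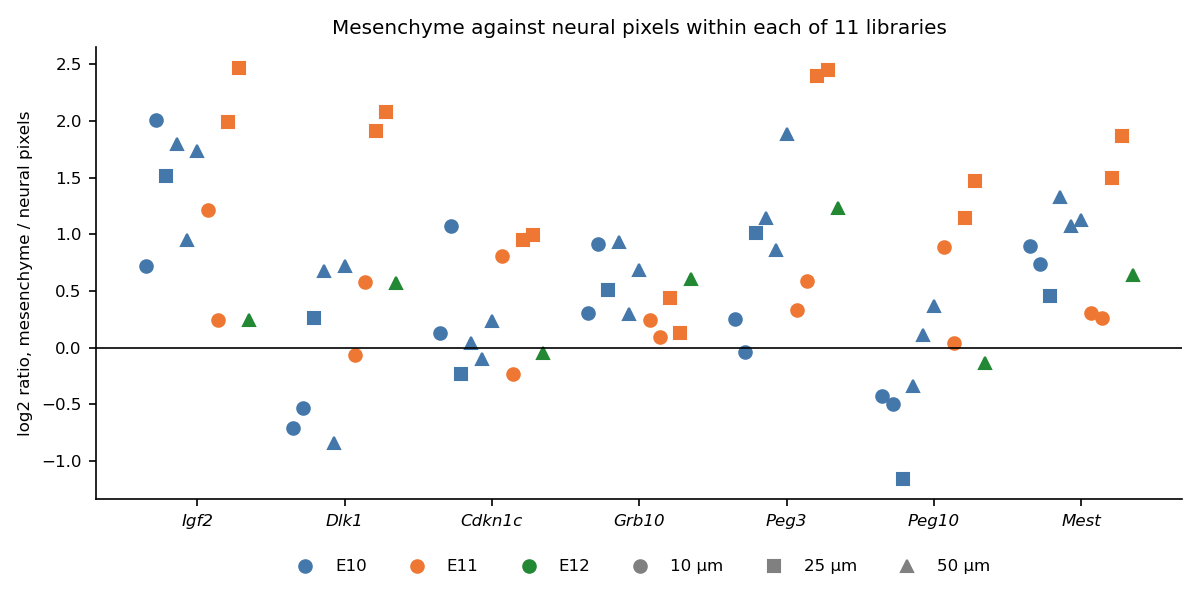
Ratio of the level in mesenchyme pixels to that in neural pixels within each library, as log2 on the y axis, for the 7 coding genes on the x axis; each point is 1 library, coloured by stage and shaped by pixel width. All 11 points of Igf2, Grb10 and Mest lie above 0, while Dlk1, Cdkn1c and Peg10 have points on both sides.

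Liver pixels were found in replicate 2 of E11 at 10 µm (175 pixels), replicates 1 and 2 of E11 at 25 µm (117 and 113 pixels) and the E12 library (121 pixels). Dlk1, a known surface marker of hepatoblasts, stood out there. In that order its levels in liver pixels were 1231, 538, 709 and 427 CPM, against 901, 296, 353 and 264 CPM in mesenchyme pixels and 604, 78.4, 83.8 and 178 CPM in neural pixels. The liver value was the highest of the 3 in each of the 4 libraries. The fitted difference from the mean of mesenchyme and neural pixels was 3.56-fold (log2 1.83 ± 0.23, adjusted p = 7.21e-10). Mest showed the reverse, with 369, 404, 528 and 255 CPM in liver pixels against 918, 1142, 1388 and 895 CPM in mesenchyme pixels, and a fitted ratio of 0.596 (log2 -0.75 ± 0.18, adjusted p = 0.00104). Against neural pixels alone the liver level of Mest was higher in 2 of the 4 libraries, in 1 of them by under 1 CPM, and lower in the other 2. In this comparison 31.1% of all genes were called, so a call by itself says little about these genes.

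The other 5 tested genes did not pass between liver pixels and the mean of mesenchyme and neural pixels. Igf2 had a log2 difference of 0.12 ± 0.19: its liver levels of 845, 486, 777 and 938 CPM lay below the mesenchyme levels in 4 of 4 libraries and above the neural levels in 2 of 4. Peg3 was at 0.31 to 0.36 of its mesenchyme level in liver pixels and had a difference of -0.39 ± 0.24 (adjusted p = 0.211). Peg10 (0.36 ± 0.22), Grb10 (-0.16 ± 0.12) and Cdkn1c (-0.04 ± 0.18) had intervals that include 0. Grb10 passed, lower in liver pixels, under library totals alone (-0.36, adjusted p = 0.0291), a scaling that shifts the median of all genes from 0.04 to -0.15. The summed red cell list was 10459 to 166710.4 CPM in liver pixels and 9326 to 56410 CPM in mesenchyme pixels, and its part in these differences was not tested.

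**Figure D3:**
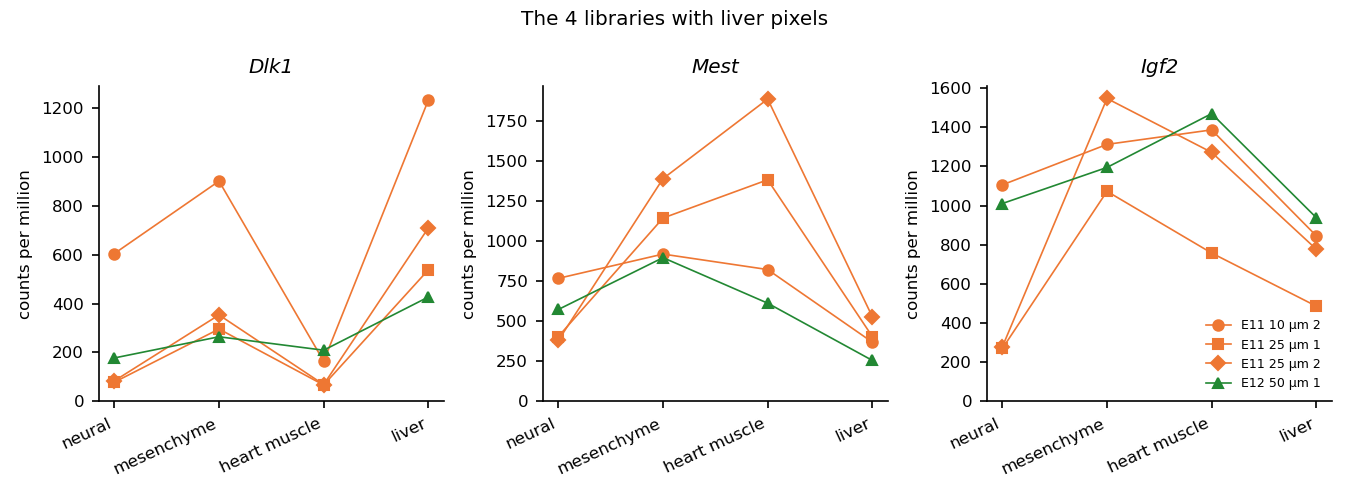
Levels of Dlk1, Mest and Igf2 in CPM (y axis) by pixel class (x axis: neural, mesenchyme, heart muscle, liver) in the 4 libraries with liver pixels; lines join the classes of 1 library. Dlk1 is highest in liver pixels (427 to 1231 CPM) in each library, and Mest is lower there (255 to 528 CPM) than in mesenchyme pixels.

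Within the neural pixels, Cdkn1c was the sole gene of the 7 tested to pass between neuron and neural progenitor pixels, where 15.2% of all genes were called. In progenitor pixels its lowest, median and highest levels over 10 libraries were 189, 518 and 1306 CPM, and in neuron pixels over 11 libraries 276, 659.8 and 1326 CPM. The neuron level was the higher in 10 of 10 libraries with both classes, by 1.02-fold to 2.50-fold (fitted log2 0.46 ± 0.15, adjusted p = 0.0273). The call was lost without replicate 3 of E10 at 50 µm (adjusted p = 0.0910) or replicate 2 of E11 at 25 µm (0.0693), with a rank of at least 0.95 (0.0892) and with no library block (0.445). Grb10 had a difference of -0.25 ± 0.10 (adjusted p = 0.0769), passed without replicate 2 of E10 at 50 µm (0.0310), and the other 5 genes lay between -0.03 and 0.33.

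Further classes are described without a test. Relative to its whole section, Igf2 had a median ratio of 1.87 in mesenchyme pixels and 1.78 in heart muscle pixels, where it exceeded the section in 9 of 9 libraries. The median ratio of Cdkn1c was 1.58 in heart muscle pixels (above the section in 8 of 9 libraries). The exception was the E12 library, with a heart muscle ratio of 0.71. The 108 skeletal muscle pixels of that E12 library had 2545 CPM of Cdkn1c, or 1.92 times the section. Mest exceeded its section in endothelium pixels in 11 of 11 libraries, with a median ratio of 1.32, and Dlk1 exceeded it in epithelium pixels in 7 of 8, with a median ratio of 1.37. Peg10 had a median ratio of 1.28 in endothelium pixels, above the section in 9 of 11 libraries, and 1.53 in the skeletal muscle pixels of the E12 library. Neural progenitor pixels had median ratios below 1 for all 7 coding genes, from 0.56 for Igf2 to 0.88 for Grb10. Of the 10 libraries with such pixels, Peg10 exceeded its section in 4, Grb10 in 3 and Dlk1 in 1. Red cell pixels also had median ratios below 1 for all 7, from 0.66 for Dlk1 to 0.99 for Igf2. CPM are shares of all counts, and the red cell list itself took 67087 to 350603 CPM in those pixels, with a median of 116858 CPM. Its part in these ratios was not tested.

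**Figure D4:**
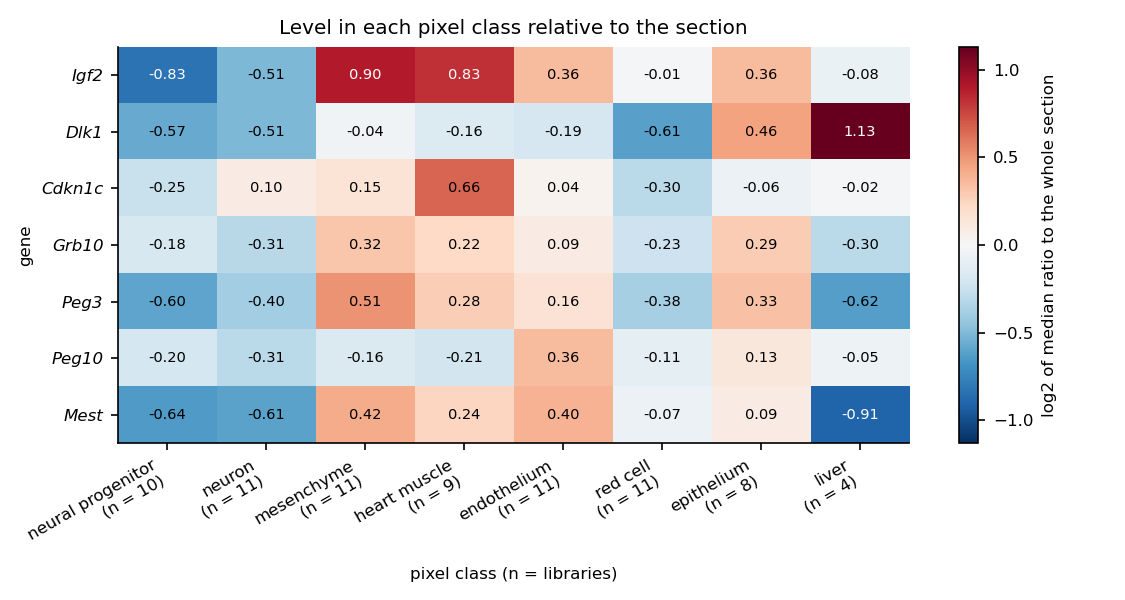
Median over libraries of each gene's level in a pixel class relative to its whole section, as log2 (colour and printed value), for 7 genes (rows) and 8 pixel classes (columns, n = libraries with the class). The neural progenitor and red cell columns are below 0 for all 7 genes and the neuron column for 6, and the deepest red marks Dlk1 in liver pixels (a ratio of 2.19).

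Stages were also compared inside 1 class of pixel, since sections differed in content. In mesenchyme pixels, where 1.43% of genes were called, 2 of 7 genes rose from E10 to E11 over both widths. Peg10 was at 64.3 and 52.5 CPM (10 µm) and 38.0 CPM (25 µm) at E10, and at 213 and 335 CPM (10 µm) and 267 and 318 CPM (25 µm) at E11, so that the groups did not overlap. It rose 6.28-fold (log2 2.65 ± 0.46, adjusted p = 0.000182) and kept its call in all 12 alternatives tried, with a log2 difference of 2.03 at a rank of at least 0.8. Dlk1 was at 99.3, 68.3 and 101 CPM at E10, and at 198, 901, 296 and 353 CPM at E11, again with no overlap, and rose 4.79-fold (log2 2.26 ± 0.48, adjusted p = 0.00807). Without replicate 2 of E11 at 10 µm its log2 difference was 1.52 and did not pass (adjusted p = 0.0981), nor did it pass without replicate 1 or 2 of E11 at 25 µm (0.0652 and 0.0523). The E10 levels of Dlk1 rest on 54, 13 and 8 counts, and those of Peg10, lower in each of these libraries, on fewer still. The liver list summed to 0 to 5.25 CPM in the mesenchyme pixels of these 3 E10 libraries and to 7.61 to 772 CPM in those of the 4 E11 libraries, and its part in these rises was not tested. Igf2 (1.06 ± 0.34, adjusted p = 0.102) and Peg3 (2.04 ± 0.80, adjusted p = 0.345) did not pass, although Peg3 did without replicate 1 of E11 at 10 µm (0.000104).

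In neural pixels 0 of 7 genes passed between E11 and E10 by edgeR, where 1.49% of all genes did, and 3 had an unadjusted p under 0.05, as did 15.3% of all genes. Peg10 had 0.91 ± 0.35 (adjusted p = 0.205) and Dlk1 0.76 ± 0.36 (0.311). Between E12 and E10, 0 of 7 passed by edgeR in mesenchyme pixels (1.48% of all genes called, 1 of the 7 and 8.73% of all genes with an unadjusted p under 0.05) and 0 of 7 in neural pixels (1.11% called, 3 of the 7 and 8.24% of all genes with an unadjusted p under 0.05). DESeq2 was not run on these within-class sums. The libraries at 10 µm are not among the groups compared at 50 µm, and enter there through the shared estimate of the spread. Leaving out replicate 1 or 2 of E10 at 10 µm also called more of all genes in neural pixels. Without replicate 1 or 2 of E11 at 10 µm, Dlk1 (0.0243 and 0.0251) and Peg3 (0.0296 and 0.0301) passed in mesenchyme pixels. In neural pixels Igf2 was at 272, 360.4 and 143 CPM in the E10 libraries at 50 µm and at 1010.3 CPM at E12 (log2 1.85 ± 0.73, adjusted p = 0.486), and passed without replicate 1 or 2 of E10 at 10 µm (0.0309 and 0.0333).

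Whether the gap between mesenchyme and neural pixels itself changed with stage was tested in an added fit, chosen after seeing these values. From E10 to E11 over both widths the gap widened for Peg3 (log2 0.98 ± 0.20, adjusted p = 0.00148) and Dlk1 (1.45 ± 0.37, adjusted p = 0.0460), with 0.215% of genes called. For Peg3 the ratios were 1.19, 0.98 and 2.02 at E10 and 1.26, 1.50, 5.28 and 5.47 at E11. The 2 high ratios are those of the 25 µm libraries, and whether the change differed between widths was not tested. For Dlk1 the ratios were 0.61, 0.69 and 1.20 at E10 and 0.96, 1.49, 3.77 and 4.22 at E11. Its E10 ratio of 1.20, at 25 µm, rests on 8 counts in mesenchyme pixels. Peg10 narrowly missed the threshold (1.79 ± 0.47, adjusted p = 0.0547). From E10 to E12 at 50 µm the gap narrowed for Igf2 (log2 -1.13 ± 0.22, adjusted p = 0.000182, with 0.704% of genes called), from ratios of 3.48, 1.93 and 3.33 at E10 to 1.18 at E12. None of the 3 calls held in every alternative. All 3 calls were lost with a rank of at least 0.95 (for Dlk1 with a log2 value of 2.21 and adjusted p = 0.0884, and adjusted p = 0.152 for Peg3 and 0.153 for Igf2). Leaving out a library lost the call of Dlk1 in 7 cases, of Peg3 in 1 and of Igf2 in 3 (replicate 1 of E10 at 25 µm, 0.0579, and replicates 1 and 2 of E11 at 10 µm). Adjusted p-values reached 0.501 for Igf2 without replicate 2 of E11 at 10 µm, 0.256 for Peg3 without that library, and 0.389 for Dlk1 without it, while the fitted differences kept their sign.

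The spread over single pixels was also described. Moran's I, which is above 0 where neighbouring pixels have like values, was computed over the 4 nearest pixels, against all genes detected in 5% or more of a section. Dlk1 lay above the 95th percentile of these genes in 11 of 11 libraries, Peg3, Igf2 and Cdkn1c in 10, Mest in 8, Peg10 in 3 and Grb10 in 0. The percentiles were not matched for level or detection. Peg3, Igf2, Cdkn1c, Mest and Grb10 were seen in a median of 78.4 to 81.8% of tissue pixels, Dlk1 in 43.3% and Peg10 in 32.7%. The median Moran's I was 0.38 for Peg3, 0.29 for Cdkn1c and 0.046 for Grb10. Correlations across pixels were weak, and are given as descriptions from sparse counts that share a library and its depth. Among the 21 pairs of the 7 coding genes, Igf2 with Peg3 had the highest median r over the 11 libraries, 0.17, with a range of 0.01 to 0.46.

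By the mean r over the 11 libraries among 2790 genes detected in 5% or more of the pixels of every section, the genes nearest to Igf2 were Col3a1, Fbn2 and Cnn2 (0.22, 0.22 and 0.21). Col3a1 and Fbn2 encode matrix proteins, and Col3a1 is one of the mesenchyme markers used here. Mest was nearest to Col3a1, Fbn2 and Peg3 (0.18, 0.17 and 0.17), and Peg3 to Gpc3, Fbn2 and Igf2 (0.22, 0.20 and 0.19). Gpc3 encodes a cell-surface proteoglycan. Cdkn1c was nearest to Igf2, Tpm1 and Myl9 (0.13, 0.13 and 0.11), of which Tpm1 and Myl9 belong to the contractile apparatus. Dlk1 was nearest to Peg3, Cdkn1c and Nnat (0.12, 0.11 and 0.09), Peg10 to Peg3, Dlk1 and Mest (0.10, 0.08 and 0.07), and Grb10 to Peg3, Gpc3 and Col2a1 (0.10, 0.09 and 0.08). For the sparse H19 and Meg3 the highest mean r were 0.034 (with Uqcc2) and 0.035 (with Rps25-ps1), too low to read.

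**Figure D5:**
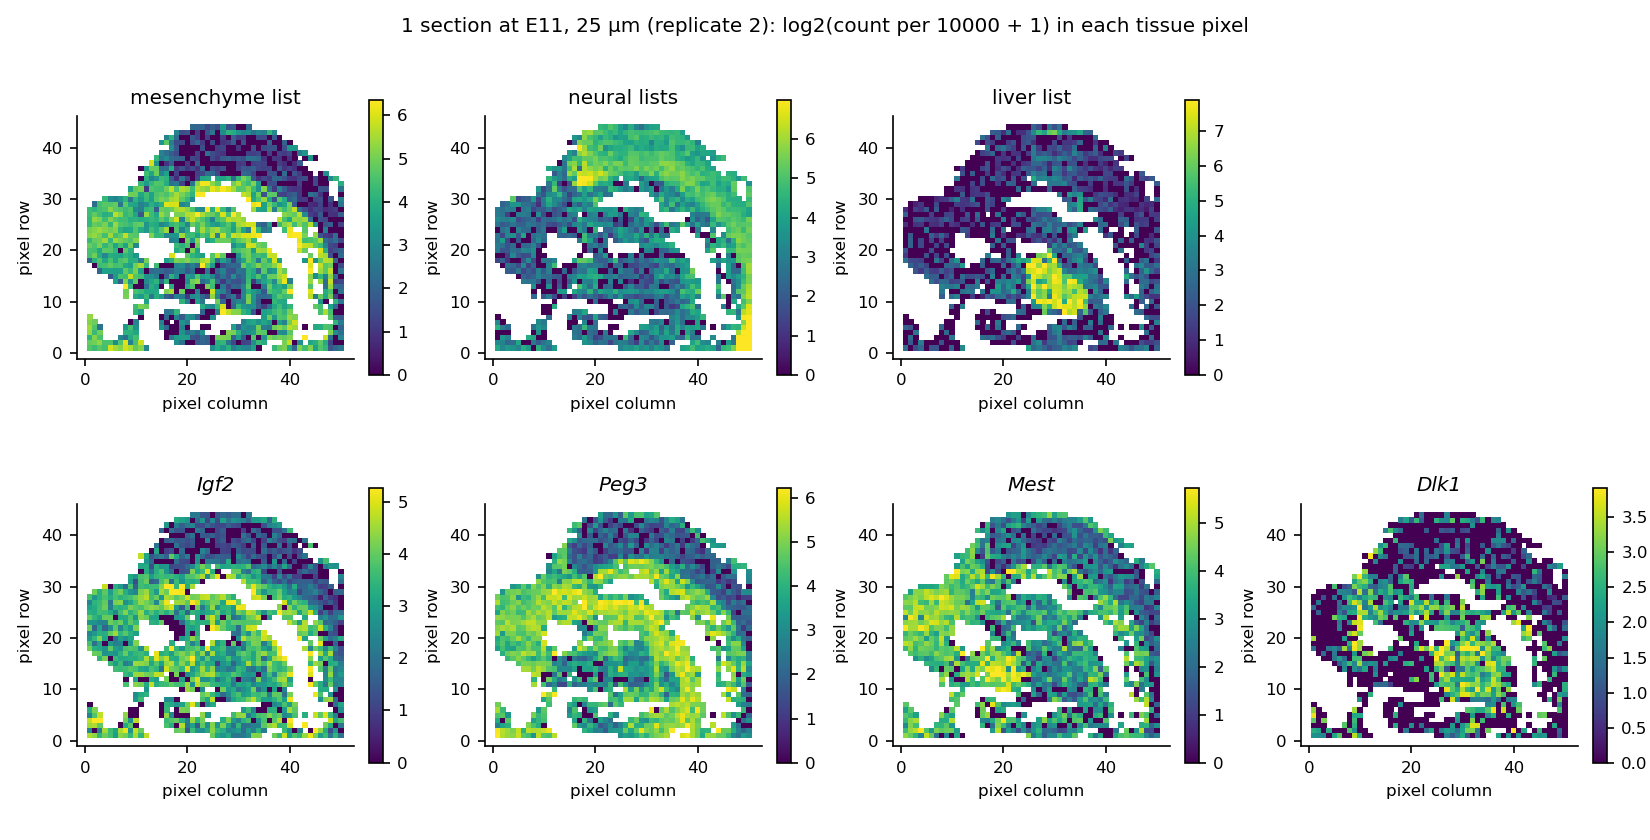
Tissue pixels of 1 section at E11, 25 µm (replicate 2), plotted by pixel column and row; colour is log2 of counts per 10000 plus 1 for the summed marker lists (top) and for Igf2, Peg3, Mest and Dlk1 (bottom). Igf2, Peg3 and Mest are low over the upper and right edge where the neural lists are high, and the largest patch of Dlk1 covers the patch of the liver list.

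Other imprinted genes did not share 1 preference. Of a list of 28 such genes, 19 were tested in the tissue comparisons. Between mesenchyme and neural pixels 6 were higher and 4 lower (21.7% of all genes were called in either direction), with a median log2 difference of -0.21. The 4 largest called differences were those of Zim1 (1.46 ± 0.36), a neighbour of Peg3, Nap1l5 (-1.42 ± 0.39), a nucleosome assembly protein family member, Asb4 (1.29 ± 0.25) and Igf2r (1.18 ± 0.16), the receptor that clears Igf2. Between neuron and progenitor pixels, where 15.2% of all genes were called, 7 were higher and 1 lower: the largest were Nap1l5 (1.82 ± 0.32), Magel2 (1.38 ± 0.49), Plagl1 (-0.84 ± 0.14), a zinc-finger regulator of imprinted genes, and Ndn (0.79 ± 0.10), which is tied to neuronal differentiation. In liver pixels, where 31.1% of all genes were called, 0 were higher and 7 lower, among them Nap1l5 (-3.21 ± 0.90), Nnat (-1.21 ± 0.23), Ndn (-1.07 ± 0.15) and Zdbf2 (-0.94 ± 0.25). Of the 24 tested between stages, Sgce, the neighbour of Peg10, was lower at E11 over both widths (-0.99 ± 0.24, adjusted p = 0.0407), whereas Peg10 was higher. None of the list was called between E12 and E10 over whole sections by edgeR.

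Of 14 genes of the insulin-like growth factor pathway, 5 were higher in mesenchyme than in neural pixels and 0 lower, beside 21.7% of all genes called, with a median log2 difference of 0.17. They were the second ligand Igf1 (1.77 ± 0.25), the binding proteins Igfbp3 (1.64 ± 0.32), Igfbp4 (1.19 ± 0.11) and Igfbp5 (1.11 ± 0.16), and Igf2r, given above. In liver pixels (31.1% of all genes called) 1 was higher, the receptor substrate Irs2 (0.84 ± 0.21), and 6 were lower, among them Igfbp5 (-1.68 ± 0.25), Irs1 (-1.55 ± 0.31) and Igf1 (-1.31 ± 0.40). Igf2bp1, an RNA-binding protein that binds Igf2 mRNA, was the 1 gene called between neuron and progenitor pixels, beside 15.2% of all genes (-0.40 ± 0.08). With 2.14% of all genes called between E12 and E10, the ligand Igf1 (2.85 ± 0.50, adjusted p = 0.0172), Igfbp3 (2.60 ± 0.51) and Igfbp5 (1.97 ± 0.37) were higher and the substrate Irs4 lower (-4.36 ± 0.91, adjusted p = 0.0284). Irs4 was also lower at E11 at 25 µm (-4.36 ± 0.84, adjusted p = 0.0443) and over both widths (-3.34 ± 0.51, adjusted p = 0.00496). In mesenchyme pixels Igf2r rose from E10 to E11 (2.41 ± 0.50, adjusted p = 0.00231), in the same comparison as Peg10 and Dlk1. Between E12 and E10, Igf1 (2.71 ± 0.46) and Igfbp5 (2.41 ± 0.50) rose in mesenchyme pixels, and in neural pixels both rose as well (2.64 ± 0.48 and 2.15 ± 0.43), with Igfbp3 (2.98 ± 0.74) and, of the imprinted list, Asb4 (1.70 ± 0.44).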

How the data were processed

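The 9 genes, the marker lists and the other gene lists were chosen with earlier results of these data known. Per the deposited files, values are whole-number counts per pixel and gene, not normalized. Per the submitters' processing notes CASAVA 1.8.2 was used and the build is named as GRCh38, with no role given. That is a human build, while the organism is mouse, and genes were matched by symbol. Aligner, annotation and any collapsing of molecular identifiers are not given in the sources used here. Per the labels' protocols, libraries were made with Nextera XT.

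Counts were summed over tissue pixels, or over a pixel class, per library, so that a library is the replicate and pixels are not. Tests used edgeR 4.0.16 (TMM, filterByExpr, robust quasi-likelihood fit; 6 group means for stage, library as block for tissue), with Benjamini-Hochberg adjustment over all tested genes and a threshold of 0.05. Marker genes stayed out of the tissue tests. SE is the log2 difference over the root of F. Intervals of fitted differences are normal approximations at a nominal 95%, and can be narrower than the F test implies. For Grb10 between E11 and E10 over both widths the interval was 0.044 to 1.05, while the F test gave an unadjusted p = 0.0532. The named genes are the 9, the 3 genes nearest to each, and up to 4 called genes of each list per comparison. For E12 a 1-library group is assumed to vary like the others. Alternatives were DESeq2 1.42.0, library totals, no filter, other pixel thresholds and leaving out each library. The change of the tissue difference with stage and a minimum count asked before ranking pixels were added after seeing the data. The fits were also run on simulated counts with 1 fixed spread and 1 mean profile shared by all libraries. That setting lacks the differences in section content seen here, so it cannot show how the tests behave on these data.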

Additional observations from a re-analysis of the deposited data

Results flagged for a closer look

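The difference between mesenchyme and neural pixels passed a test of its change with stage for 3 genes, in a fit added after seeing the data. None of the 3 calls held in all 12 alternatives. That of Dlk1 was lost in 8, that of Igf2 in 4 and that of Peg3 in 2, and all 3 were lost with a rank of at least 0.95. For Dlk1 the log2 difference was larger by 1.45 at E11 than at E10 over both widths, and for Peg3 by 0.98. For Igf2 the change from E10 to E12 at 50 µm was -1.13, resting on 1 E12 library.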

How the results depend on the processing

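No paired analysis of stage was possible because the labels give no pairing of libraries between stages, and tissue comparisons already have library as block. Of 1446 alternative values of single genes, 1330 kept direction and side of the threshold, 25 passed newly, 33 no longer passed and 58 changed sign, 0 of them for a called gene. The cause of the changes was not tested. Library totals alone moved the median log2 difference of all genes from 0.08 to -0.12 between E11 and E10 at 25 µm and from 0.04 to -0.15 in the liver comparison. H19 had 1 to 20 counts per library and Meg3 2 to 26, and both missed the low-count filter in every tissue comparison. Over all genes, the number called between E11 and E10 moved from 608 to 968 (DESeq2) and 1835 (no filter) at 10 µm, from 83 to 393 and 671 at 25 µm, and from 656 to 1377 and 1988 over both widths. Between E12 and E10 it moved from 390 to 1328 with no filter. With no library block it fell from 2957 to 1569 between mesenchyme and neural pixels and from 2075 to 353 between neuron and progenitor pixels. A rank of at least 0.8 raised it from 136 to 223 in mesenchyme pixels (E11), from 147 to 241 in neural pixels (E12) and from 82 to 141 for the change of the gap at E12, while a rank of at least 0.95 lowered the change of the gap from 25 to 9 (E11) and from 82 to 23 (E12). Leaving out 1 library gave 190 to 1258 genes called between E11 and E10 at 10 µm, 17 to 218 at 25 µm, 144 to 1465 over both widths, 73 to 260 in mesenchyme pixels and 61 to 449 in neural pixels. For E12 against E10 it gave 98 to 969, with 79 to 189 in mesenchyme and 92 to 234 in neural pixels, and for the change of the gap 7 to 25 (E11) and 45 to 100 (E12). The shares of all genes beside the calls move with these counts. Without the E12 library the liver comparison called 2548 genes in place of 4235.

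The number of the 9 genes called ranged from 4 to 6 between mesenchyme and neural pixels (5 as reported) and from 2 to 3 in the liver comparison (2 as reported). Elsewhere it changed as follows. Between E11 and E10 at 10 µm it was 2 with DESeq2 and 2 with no filter on low counts, over both widths 2 and 3, and between E12 and E10 it was 3 with no filter. Between neuron and progenitor pixels it was 0 with no library block and 0 with a rank of at least 0.95. For the change of the mesenchyme gap with stage it was 0 with a rank of at least 0.95, both for E11 and for E12. Leaving out 1 library gave 0 to 2 between E11 and E10 at 10 µm, 0 to 3 over both widths, 1 to 3 in mesenchyme pixels, 0 to 1 between E12 and E10, 0 to 2 for that in mesenchyme pixels, 0 to 1 in neural pixels, 0 to 2 between neuron and progenitor pixels, and 0 to 2 (E11) and 0 to 1 (E12) for the change of the gap.

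Signs changed as follows on the log2 scale. With library totals alone, Cdkn1c was -0.099 at 25 µm, Mest -0.064 over both widths, Igf2 -0.095 in the liver comparison and Peg10 0.0025 between neuron and progenitor pixels. With no library block, the liver comparison gave 0.25 for Cdkn1c, 0.11 for Grb10 and 0.42 for Peg3, and the neuron comparison -0.0039 for Mest and 0.0017 for Peg10. With a rank of at least 0.8, Mest was 0.11 between E12 and E10 in mesenchyme pixels, Peg10 0.094 between neuron and progenitor pixels, and the gap changed by -0.0096 for Igf2 (E11), 0.053 for Peg10 and -0.070 for Peg3 (E12). With a rank of at least 0.95, the gap of Peg10 changed by 0.49 (E12) and Mest was -0.00049 between neuron and progenitor pixels. Peg10 was 0.059 there with DESeq2, Meg3 was 0.0014 at 25 µm with stricter tissue pixels, and Mest was -0.028 between E12 and E10 with no filter.

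Leaving out each library gave these ranges where a sign changed. At 10 µm between E11 and E10: Cdkn1c -0.67 to 1.22, Igf2 -0.30 to 1.61 and Peg3 -0.66 to 1.76, each negative without replicate 2 of E11. At 25 µm: Cdkn1c -0.065 to 0.27 and Meg3 -0.52 to 0.36. Over both widths: Cdkn1c -0.28 to 0.70, Mest -0.052 to 0.16, and Cdkn1c in neural pixels -0.54 to 0.55. Between E12 and E10: Mest -0.12 to 0.14, and in mesenchyme pixels Grb10 -0.023 to 0.47, Mest -0.28 to 0.033 and Peg10 -0.17 to 0.26. In the liver comparison Cdkn1c ran from -0.17 to 0.10, and between neuron and progenitor pixels Mest from -0.013 to 0.092 and Peg10 from -0.10 to 0.022. For the change of the gap, Igf2 ran from -0.25 to 0.43 (E11), and at E12 Cdkn1c from -0.049 to 0.0497, Grb10 from -0.082 to 0.17, Peg10 from -0.30 to 0.034 and Peg3 from -0.17 to 0.30.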
